A study of Bos taurus with 4 samples.

Results

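The calgranulins S100A8, S100A9 and S100A12 were followed across the 4 bovine RNA-seq libraries of this series. They were chosen by Ensembl identifier as products of neutrophils and monocytes, to ask how much myeloid RNA the lymphocyte preparations carried. All 3 identifiers were found among the 24616 rows of the deposited table: ENSBTAG00000012640 for S100A8, ENSBTAG00000006505 for S100A9 and ENSBTAG00000012638 for S100A12. The names came with the choice of the rows, because the table itself holds identifiers and no names, and they were not checked against an annotation here.

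The groups were mammary tissue from female cattle and lymphocytes from male cattle, with 2 libraries each, all of 1 breed written "Hostein" in the labels. Sex therefore divides the libraries exactly as tissue does, and their effects cannot be told apart. No treatment is named for either group, and age, stage of lactation and the way the lymphocytes were prepared are not stated by any source used here. Both mammary titles carry the mark "dup", which is not explained, and nothing says that replicates came from separate animals. The spread among libraries behind the limma p-values below, pooled over rows or a gene's own, may therefore be partly technical. Levels are FPKM, that is, fragment numbers adjusted for transcript length and library size, so levels of different genes can be set side by side.

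Calgranulins are small calcium-binding proteins of the S100 family. S100A8 and S100A9 pair to form calprotectin, which is stored in large amounts in the cytoplasm of neutrophils, is present in monocytes, and withholds zinc and manganese from bacteria. S100A12 is a related protein of granulocytes that binds the receptor RAGE. Resting lymphocytes are not known as a main source of these proteins, whereas epithelia, including that of the infected bovine udder, can also make them. In the RefSeq gene table for the assembly ARS-UCD2.0, S100A8, S100A12 and S100A9 are listed in this order as neighbours on chromosome 3. The deposited values were made on another assembly, so no positions are given.

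All 3 calgranulins were present in both lymphocyte libraries, at 46.1 to 172.7 FPKM, and had higher values there than in either mammary library, as did 52.7% of all rows tested. Mammary replicate 1 held intermediate levels, and mammary replicate 2 held little or none. S100A12 had the highest level of the trio in each library. In limma's fit to the values as deposited, all 3 were called higher in lymphocytes, by 3.44 to 4.30 on the log2(FPKM + 1) scale, against 10.7% of all rows and a median row higher by 0.81. After median-of-ratios scaling, in a fit where each gene's own spread entered the test, 0 of the 3 passed the threshold, against 7.97% of all rows.

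S100A8, the smaller partner in calprotectin, had levels of 47.0 and 63.0 FPKM in the lymphocyte libraries (replicates 1 and 2). It was at 6.96 FPKM in mammary replicate 1 and listed at 0 in mammary replicate 2. Both lymphocyte values were above both mammary values, so the groups did not overlap, as in 52.7% of all rows tested. On the log2(FPKM + 1) scale used for the test, the lymphocyte libraries were at 5.58 and 6.00 and the mammary libraries at 2.99 and 0, so the mammary libraries lay further apart on that scale. The lymphocyte mean was 55.0 ± 11.3 FPKM (SD, n = 2). Against mammary replicate 1 alone, lymphocyte replicates 1 and 2 were 6.75 and 9.05 times as high in FPKM, and no ratio is given against the listed 0.

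S100A9, the other partner in calprotectin, reached 48.1 FPKM in lymphocyte replicate 1 and 46.1 FPKM in lymphocyte replicate 2, with a mean of 47.1 ± 1.43 FPKM (SD, n = 2). It was at 14.04 FPKM in mammary replicate 1 and at 0.312 FPKM in mammary replicate 2. As deposited, the lymphocyte values were nearly equal, while mammary replicate 1 was 44.9 times as high as mammary replicate 2. After median-of-ratios scaling, the lymphocyte values were 39.9 and 28.0, and mammary replicate 1 was 18.6 times as high as mammary replicate 2. Lymphocyte replicates 1 and 2 exceeded mammary replicate 1 by 3.43 and 3.28 times in FPKM, and mammary replicate 2 by 153.9 and 147.4 times. The ratios to mammary replicate 2 divide by a value below 1 FPKM, and they were 57.4 and 40.2 after median-of-ratios scaling. The size of the tissue difference in S100A9 therefore depended on which mammary library was used.

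S100A12, the RAGE ligand, reached 117.1 FPKM in lymphocyte replicate 1 and 172.7 FPKM in lymphocyte replicate 2, with a mean of 144.9 ± 39.3 FPKM (SD, n = 2). It was at 29.3 FPKM in mammary replicate 1 and at 1.64 FPKM in mammary replicate 2, and it was the 1 calgranulin that reached 1 FPKM in all 4 libraries. The order of the libraries was that of S100A8, with lymphocyte replicate 2 highest and mammary replicate 2 lowest. Lymphocyte replicates 1 and 2 were 3.99 and 5.89 times as high in FPKM as mammary replicate 1, and 71.6 and 105.5 times as high as mammary replicate 2. After median-of-ratios scaling, the ratios to mammary replicate 2 were 26.7 and 28.8. In bulk RNA, fewer cells of a type and less RNA per cell cannot be told apart, so these FPKM ratios do not measure numbers of myeloid cells. Marker genes of neutrophils, monocytes, T cells and B cells could not be matched to rows, so the part of any cell type in these levels was not tested.

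**Figure D1:**
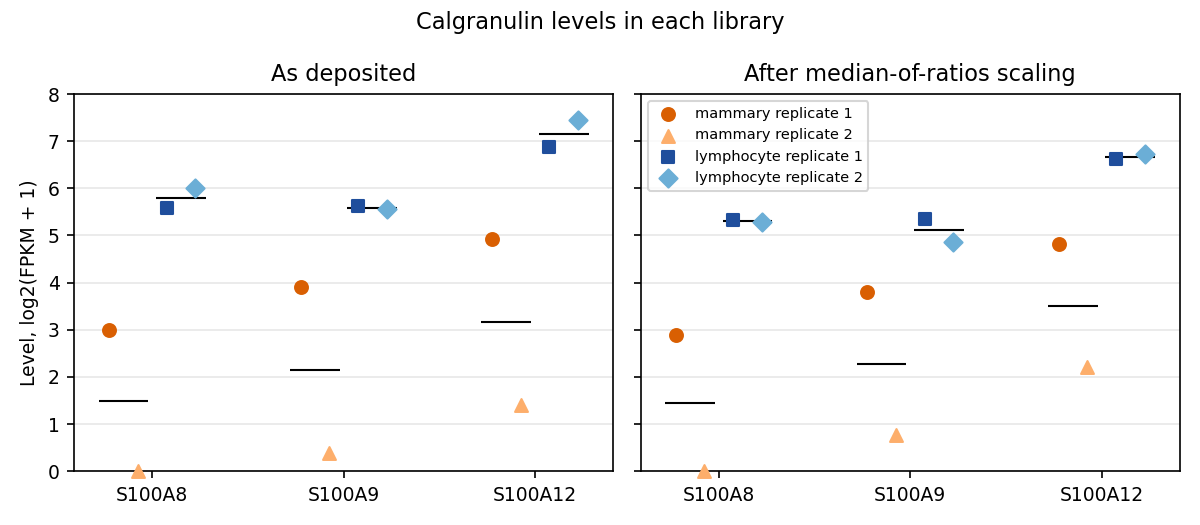
Level of each calgranulin, as log2(FPKM + 1), in each of the 4 libraries, as deposited (left) and after median-of-ratios scaling (right); points are libraries and black bars are the means of the 2 libraries of a group. Both lymphocyte libraries lie above mammary replicate 1, and mammary replicate 2 lies lowest, for all 3 genes on both scales. Of all rows tested, 50.8% as deposited and 26.3% after scaling share that order.

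By rank, the calgranulins lay in the upper part of the lymphocyte transcriptome but not at its top. S100A12 ranked 373 and 324 from the highest of the 24616 rows in lymphocyte replicates 1 and 2, so 1.51% and 1.31% of rows were higher. S100A8 ranked 888 and 882, with 3.60% and 3.58% of rows higher, and S100A9 ranked 874 and 1220, with 3.55% and 4.95% of rows higher. The 24616 rows include 5279 at 0 in all 4 libraries. Among the 12311 rows tested, 3.02% and 2.62% were above S100A12. Above S100A8 were 7.20% and 7.16% of them, and above S100A9 7.09% and 9.90%.

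Mammary replicate 1 placed the genes lower and further apart. There, S100A12 ranked 1329, S100A9 ranked 3151 and S100A8 ranked 6191. In mammary replicate 2, S100A12 ranked 8024 and S100A9 ranked 12483, and S100A8 shared its 0 with other rows. Ranks do not depend on how a library is scaled. For each of the 3 genes, both lymphocyte ranks were nearer the top than either mammary rank. The share of all rows with that pattern of ranks was not computed. By FPKM, both lymphocyte libraries were above both mammary libraries in 52.7% of rows tested as deposited and in 36.0% after median-of-ratios scaling.

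**Figure D2:**
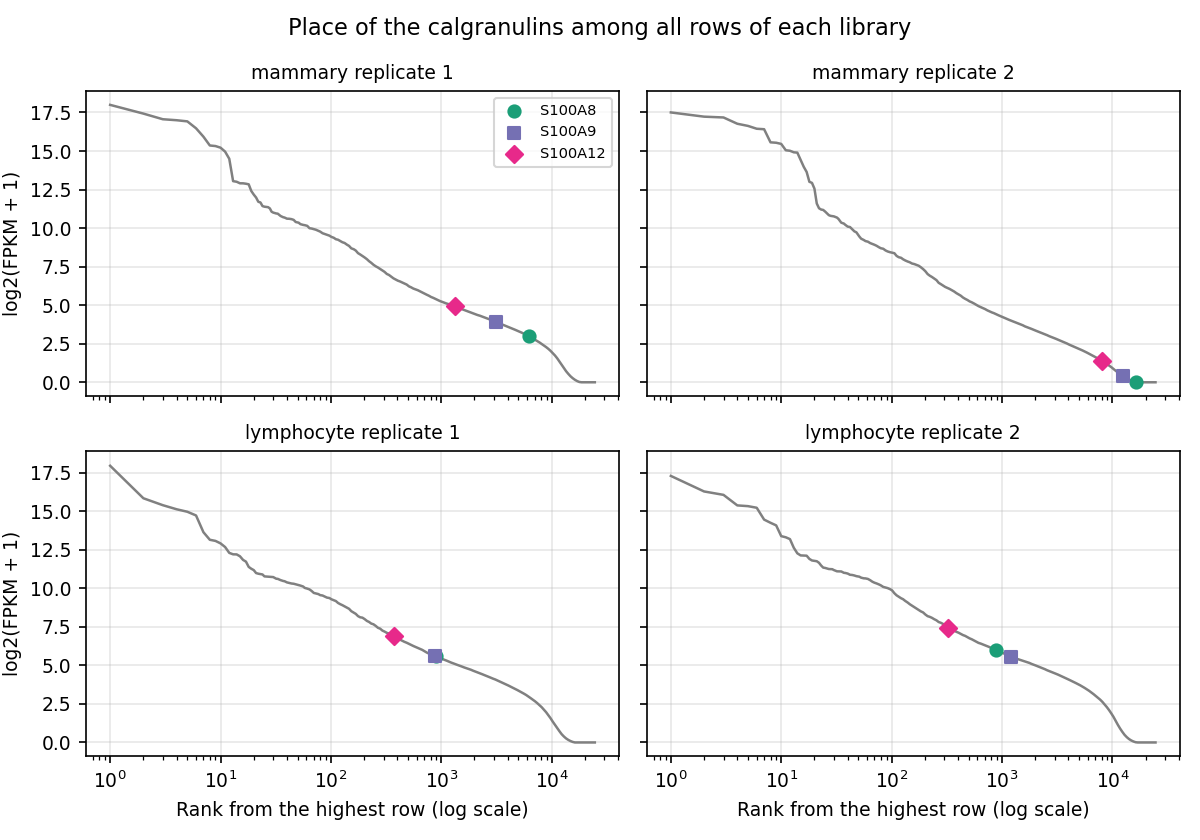
Level, as log2(FPKM + 1), against rank from the highest of the 24616 rows (log axis) in each library; the grey line is all rows and the symbols are the 3 calgranulins. The genes sit between ranks 324 and 1220 in the lymphocyte libraries, between 1329 and 6191 in mammary replicate 1, and from 8024 down in mammary replicate 2.

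The summed FPKM of the trio was 212.1 and 281.7 in lymphocyte replicates 1 and 2, and 50.3 and 1.95 in mammary replicates 1 and 2. As a share of a library's summed FPKM, the trio took 256.0 and 292.0 parts per 1000000 in the lymphocyte libraries, and 32.7 and 1.41 in the mammary libraries. The summed FPKM of all rows was larger in mammary replicates 1 and 2 (1536180 and 1384630) than in lymphocyte replicates 1 and 2 (828745 and 964825). That difference alone lowers the mammary shares. After median-of-ratios scaling, the trio summed to 176.0 and 171.1 in the lymphocyte libraries and to 46.4 and 4.34 in the mammary libraries. The calgranulins were thus a small part of the summed FPKM in every library.

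The make-up of the trio was compared within each library, where scaling plays no part. S100A12 held 55.2% and 61.3% of the trio's FPKM in lymphocyte replicates 1 and 2, 58.3% in mammary replicate 1 and 84.0% in mammary replicate 2. S100A8 held 22.1% and 22.4% in the lymphocyte libraries against 13.8% in mammary replicate 1. S100A9 held 22.7% and 16.3% in the lymphocyte libraries, and 27.9% and 16.03% in mammary replicates 1 and 2. The share of S100A12 in mammary replicate 1 lay between those of the lymphocyte libraries, whereas mammary replicate 2 stood apart, at a summed level of 1.95 FPKM.

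The calprotectin partners were near parity in lymphocyte replicate 1, and S100A9 was the lower of them in lymphocyte replicate 2. The FPKM ratio of S100A9 over S100A8 was 1.02 and 0.731 in lymphocyte replicates 1 and 2 and 2.02 in mammary replicate 1. The ratio of S100A12 over S100A8 was 2.49 and 2.74 in lymphocyte replicates 1 and 2 and 4.21 in mammary replicate 1. The ratio of S100A12 over S100A9 was 2.44 and 3.75 in lymphocyte replicates 1 and 2, and 2.09 and 5.24 in mammary replicates 1 and 2. Relative to the other 2 genes, S100A8 was thus lower in mammary replicate 1 than in either lymphocyte library. These ratios come from single libraries and were not tested, and with S100A8 listed at 0 no ratio to it is given for mammary replicate 2.

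**Figure D3:**
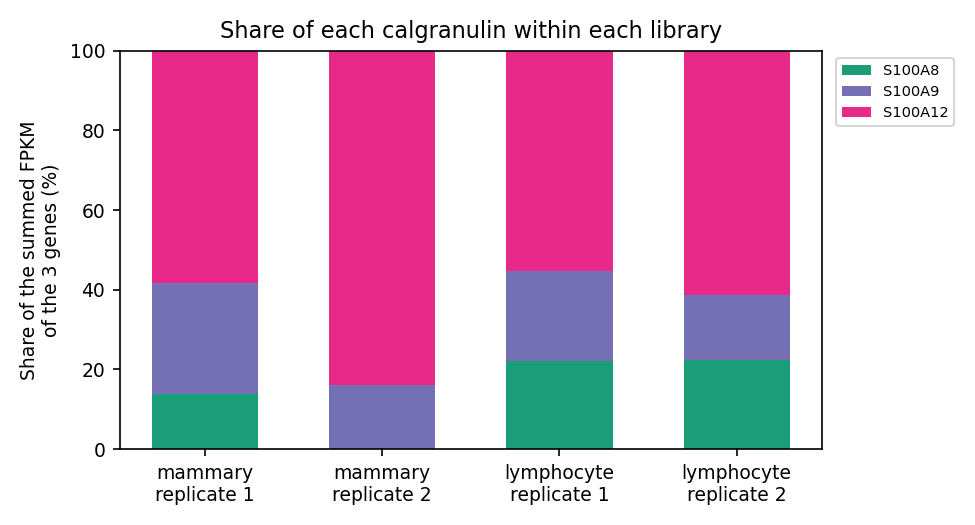
Share of S100A8, S100A9 and S100A12 in the summed FPKM of the 3 genes (per cent) in each library, as stacked bars without replicate error. S100A12 takes 55.2% to 61.3% in the lymphocyte libraries and mammary replicate 1, and 84.0% in mammary replicate 2, where S100A8 is listed at 0.

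The tissue comparison was tested in 1 fit across all 12311 rows that reached 1 FPKM in at least 2 of the 4 libraries. All 3 calgranulins met that filter, and S100A8 and S100A9 met it through mammary replicate 1 as well as both lymphocyte libraries. The log2 difference in FPKM + 1, lymphocyte minus mammary, was 4.30 for S100A8 (95% interval 2.61 to 5.98, limma adjusted p = 2.2e-05). It was 3.44 for S100A9 (1.75 to 5.12, limma adjusted p = 8.6e-04) and 4.00 for S100A12 (2.29 to 5.71, limma adjusted p = 1.1e-04). All 3 were called higher in lymphocytes, against 10.7% of all rows tested. The median row differed by 0.81 in the same direction. Because S100A8 is listed at 0 in mammary replicate 2, the size of its difference is set in part by the value added to the FPKM: it was 6.02 with 0.1 added and 2.94 with 5 added.

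The spread of these genes was larger than the one the test used. Limma gave each row the spread typical of its level, 0.86 for S100A8, 0.86 for S100A9 and 0.87 for S100A12 on the log2 scale. The genes' own residual spreads were 1.51, 1.76 and 1.78 in the same order, and came mainly from the gap between the mammary libraries. The small p-values rest on that pooled spread. An exact permutation test over the 4 libraries gave a two-sided p of 0.333 for each gene, which is the smallest value that 2 libraries against 2 can reach.

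Median-of-ratios scaling brings the libraries to a common median row. In limma's fit to the scaled values the prior degrees of freedom were finite (2.33), so a gene's own spread counted. They were also finite (4.67) for the values as deposited when low rows were kept. After the scaling, the FPKM of S100A8 was 39.0 and 38.3 in the lymphocyte libraries, against 6.42 and 0 in the mammary libraries (replicates 1 and 2 in order). S100A9 was at 39.9 and 28.0 in lymphocytes and at 12.96 and 0.695 in mammary tissue, and S100A12 at 97.2 and 104.9 in lymphocytes and at 27.1 and 3.64 in mammary tissue. The order of the groups was unchanged for all 3 genes, with both lymphocyte values above both mammary values, as in 36.0% of all rows tested.

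The log2 differences on this scale were 3.86 for S100A8 (limma adjusted p = 0.065), 2.82 for S100A9 (limma adjusted p = 0.14) and 3.16 for S100A12 (limma adjusted p = 0.079). None of the 3 was called, against 7.97% of all rows called higher in lymphocytes. Their unadjusted limma p-values were 0.016, 0.053 and 0.023 in the same order. Of all rows tested, 0.495% had a larger difference toward lymphocytes than S100A8, 2.01% than S100A9 and 1.41% than S100A12.

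**Figure D4:**
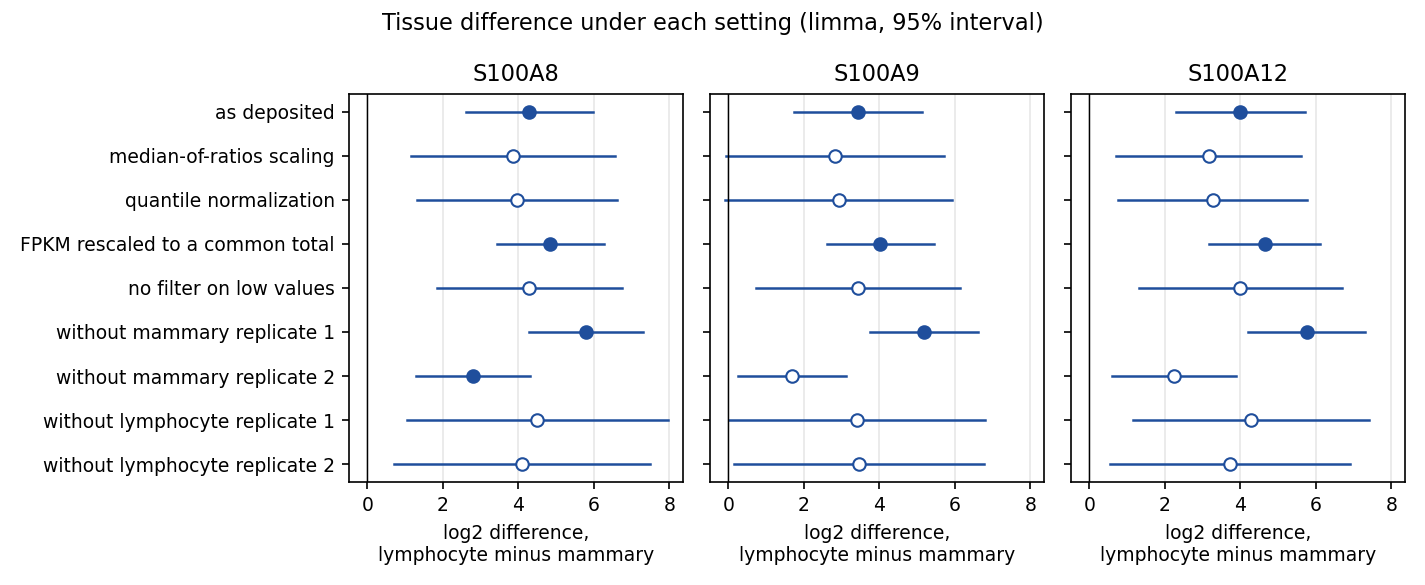
Log2 difference in FPKM + 1, lymphocyte minus mammary, for each calgranulin (panels) under 9 settings (rows), with limma's 95% interval; filled points have an adjusted p below 0.05 and open points do not. Every point lies above 0, and the estimates move with the mammary library that is left out. The calls of all 3 genes are lost after median-of-ratios or quantile scaling, with low rows kept and without either lymphocyte library. Of all rows, 981 of 12311 were called higher in lymphocytes after median-of-ratios scaling and 1738 of 12311 after quantile scaling. With low rows kept, only 1 of 19337 rows was so called.

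Which mammary library entered the fit set the size of the difference. Without mammary replicate 1, the log2 differences were 5.79 for S100A8, 5.19 for S100A9 and 5.76 for S100A12, and all 3 were called (limma adjusted p = 0.0054, 0.0066 and 0.0061), against 22.4% of all rows. Without mammary replicate 2, the differences were 2.80, 1.68 and 2.24, with limma adjusted p-values of 0.049, 0.14 and 0.10, so that S100A8 alone of the 3 was called, against 3.24% of all rows. Without lymphocyte replicate 1 the differences were 4.50, 3.40 and 4.28, and without lymphocyte replicate 2 they were 4.09, 3.47 and 3.72. None of the 3 was then called, with limma adjusted p-values from 0.20 to 0.57, and the background of rows called higher in lymphocytes was 0.585% and 0.471%. In those last fits, the spread came from the mammary libraries alone. In the fits without a mammary library, as deposited and after median-of-ratios scaling, it came from the lymphocyte libraries alone. A call in such a fit therefore takes no account of the gap between the mammary libraries. After median-of-ratios scaling, all 3 were called without mammary replicate 1 (against 6.24% of rows). Without mammary replicate 2, S100A8 and S100A12 were called (limma adjusted p = 0.030 and 0.049) and S100A9 was at 0.14, against 2.03% of rows. None of the 3 was called without either lymphocyte library, when 0 of all rows passed in limma's test, although the unadjusted p was below 0.05 in 2787 and 2967 rows.

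That both lymphocyte libraries lay above both mammary libraries was a common pattern, found in 52.7% of all rows tested as deposited and in 36.0% after median-of-ratios scaling. The full order, with mammary replicate 2 below mammary replicate 1 below both lymphocyte libraries, was held by all 3 calgranulins, and by 50.8% of rows as deposited and 26.3% after scaling. The order of the libraries alone therefore does not set the calgranulins apart from other rows.

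The gap between the mammary libraries was wide in the calgranulins. Mammary replicate 1 was above mammary replicate 2 by 2.99 for S100A8, 3.52 for S100A9 and 3.52 for S100A12 on the log2(FPKM + 1) scale, while the median row was above by 1.05. Mammary replicate 1 was the higher of both in 93.1% of all rows, all 3 calgranulins included. All 3 were over 4-fold higher there in FPKM + 1, against 7.83% of all rows, and S100A9 and S100A12 were over 8-fold higher, against 1.08%. Relative to the median row, S100A9 and S100A12 were still over 4-fold higher, at 2.47 each on the log2 scale, against 0.967% of rows. S100A8 was at 1.94 by that measure, just under 4-fold and with a listed 0 on one side. When the libraries were first scaled by median of ratios, its gap relative to the median row was 2.75, over 4-fold. As deposited, none of the 3 was over 8-fold higher relative to the median row, as were 0.162% of rows. Each of these compares 2 single libraries and has no replicate check.

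The lymphocyte libraries lay closer together on the log2 scale. The difference in log2(FPKM + 1), lymphocyte replicate 2 minus replicate 1, was 0.42 for S100A8, 0.56 for S100A12 and -0.06 for S100A9, and 0.40 for the median row. Relative to the median row it was 0.020 for S100A8, 0.16 for S100A12 and -0.46 for S100A9. All 3 differed by under 2-fold, as did 90.1% of all rows. None of the 3 was among the 0.382% of rows more than 8-fold apart between the lymphocyte libraries. S100A9 was the least alike of the 3 relative to the median row, and 13.3% of rows leaned further toward lymphocyte replicate 1. After median-of-ratios scaling, S100A9 was 1.43 times as high in lymphocyte replicate 1 as in replicate 2 in scaled FPKM, and 10.2% of rows leaned further that way.

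Likeness to the calgranulins was measured as the Euclidean distance between profiles of log2(FPKM + 1), each centred over the 4 libraries, from the mean profile of the trio. The trio's own members lay at 0.465 for S100A8, 0.555 for S100A9 and 0.237 for S100A12, and their profiles entered that mean. S100A8 and S100A12 were the closest pair, at 0.487 from each other, and S100A8 and S100A9 the farthest, at 0.996. Of the other 12308 rows, 1 lay nearer the mean than S100A8 did. This row, ENSBTAG00000048049, lay at 0.398, with levels of 531.8 and 656.1 FPKM in the lymphocyte libraries and 100.7 and 13.8 FPKM in mammary replicates 1 and 2. The next, ENSBTAG00000001219, lay at 0.558, with levels of 293.8 and 386.9 FPKM in the lymphocyte libraries and 44.0 and 5.43 FPKM in mammary replicates 1 and 2. Both rows shared the order of the libraries with S100A8 and S100A12 at higher levels. After median-of-ratios scaling, ENSBTAG00000001219 was still among the 2 rows most like the trio and ENSBTAG00000048049 was not, and 0 rows lay nearer its mean than any of the 3 members.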

How the data were processed

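The authors deposited 1 table of FPKM, with 1 value per Ensembl gene identifier and library (150 bp read pairs, per the labels). Per the submitters' processing notes, Trimmomatic 0.39, STAR, Cufflinks and the assembly UMD3.1 were used; roles, settings, annotation, strandedness and the treatment of reads that match several genes are not stated by any source used here. Each column of values carried the title of 1 sample, and mammary and lymphocyte replicates were numbered in accession order. FPKM holds no read count, so depth is unknown and counting error could not be given. The deposited FPKM summed to between 828745 and 1536180 per library, with 15844 to 17953 rows above 0.

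Values were compared as log2(FPKM + 1) with limma 3.58.1 in R 4.3.3 (moderated test, two-sided, mean-variance trend, tissue as the only term, Benjamini-Hochberg adjustment over all 12311 rows tested, threshold 0.05), after a check on simulated data. That check gave every simulated row the same spread. It therefore could not show how the test treats rows with a larger spread of their own, as the 3 calgranulins had. Low genes' fold changes are understated on this scale. The design leaves 2 residual degrees of freedom, and limma estimated infinite prior degrees of freedom for the values as deposited. Median-of-ratios factors were taken over rows at 1 FPKM or more in all libraries. The 3 genes, the lists and the tests were chosen with earlier results of these data known. The named genes are the 3 calgranulins and the 2 rows most like them. The 13 lists of cell type markers, regulators, receptors and other S100 genes could not be matched to identifiers (0 of 24616 were found in the RefSeq table), so none was tested, and the labelled tissues were not checked against markers.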

Additional observations from a re-analysis of the deposited data

How the results depend on the processing

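All 3 calgranulins kept a positive log2 difference, lymphocyte minus mammary, under the 16 alternatives run. A positive sign alone does not set them apart, because the median row ranged from -0.0045 to 1.38 across these alternatives. S100A8 stayed past the threshold in 9 of these, S100A9 in 7 and S100A12 in 8. Pseudocounts of 0.1 and 5 FPKM, a filter at 5 FPKM, a common FPKM total and a fit without the trend changed no call of the 3 genes. With a common total, however, 5644 of the 12311 rows were called higher in lymphocytes, and the median row was higher there by 1.38. The sizes did move with the pseudocount: they were 6.02, 4.29 and 4.32 for S100A8, S100A9 and S100A12 at 0.1 FPKM, and 2.94, 2.37 and 3.29 at 5 FPKM, where S100A12 exceeded S100A8. For S100A8, S100A9 and S100A12 in this order, limma's adjusted p was above the threshold when low rows were kept (differences 4.30, 3.44 and 4.00, adjusted p = 0.11, 0.16 and 0.13), after median-of-ratios scaling (3.86, 2.82 and 3.16) and after quantile normalization (3.96, 2.93 and 3.26, adjusted p = 0.053, 0.12 and 0.069). In each of these fits limma's prior degrees of freedom were finite (4.67, 2.33 and 2.26), so that the genes' own spread entered. Rows called higher in lymphocytes were 1 of 19337, 981 of 12311 and 1738 of 12311 in the same order of fits. Leaving out each library gave 2.80 to 5.79, 1.68 to 5.19 and 2.24 to 5.76 as deposited, and 2.42 to 5.31, 1.30 to 4.34 and 1.86 to 4.46 after median-of-ratios scaling. In the latter, all 3 were called without mammary replicate 1, S100A8 and S100A12 without mammary replicate 2, and none without lymphocyte replicate 1 (3.85, 2.57 and 3.21) or 2 (3.87, 3.07 and 3.105). A group left with 1 library was taken to vary as the other group did, so calls without a mammary library take no account of the gap between the mammary libraries. The background moved more: 1312 rows were called higher in lymphocytes and 1051 in mammary tissue, but 981 and 1511 after median-of-ratios scaling, which turned the balance of directions, 1 and 4 with low rows kept, and 5644 in lymphocytes after rescaling to a common total. A filter at 5 FPKM left 383 in mammary tissue. Leaving out each library gave 58 to 2754 and 37 to 1187 as deposited, and 0 to 768 (250 without mammary replicate 2) and 0 to 1693 after median-of-ratios scaling, where limma called 0 rows without lymphocyte replicates 1 and 2 although 2787 and 2967 had an unadjusted p below 0.05. The number of rows over 8-fold apart between the lymphocyte libraries was 47, or 87 relative to the median row. In mammary replicate 2, adding 1 FPKM took the ratio of S100A12 over S100A9 from 5.24 to 2.01. No paired analysis was possible because mammary tissue came from females and lymphocytes from males, so no animal gave both. The titles also carry a different number for each library. Depth is unknown, so how counting error limits the low mammary values cannot be said.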
